A study of Mus musculus with 12 samples.

Results

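The acute phase protein genes described here are Saa1, Saa2, Saa3, Saa4, Hp, Orm1, Orm2, Orm3, Lcn2, and Crp, 10 of the 24421 gene symbols counted. They were chosen by symbol, for the plasma proteins they encode, and all 10 were found. Tumors of 6 mice were sequenced together with a non-tumoral (NT) liver sample of each animal, and a liver is named by its mouse (NT-941 is the liver of the mouse that gave T-HCC941). The p21+/Tert mice (livers NT-662, NT-663, NT-941, and NT-992) carry a knock-in that expresses telomerase reverse transcriptase (Tert) from the promoter of p21, the cell cycle inhibitor Cdkn1a. The p21+/TertCi mice (NT-981 and NT-984) carry the same knock-in with a catalytically inactive Tert. All animals were older than 18 months on a standard diet, and each sample was a piece of whole tissue from 1 mouse. Mice of both genotypes retained the endogenous Tert gene, although the paper reports copy number loss at this locus in part of its tumors. No wild-type liver was analysed here.

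The tumors fell into 3 driver classes. T-HCC662 and T-HCC663 carried mutations of Ctnnb1, which encodes β-catenin, T-HCC941 and TCi-HCC981 carried mutations of Egfr or Hras, and T-HCA992 and TCi-HCA984 carried neither kind. HCC stands for hepatocellular carcinoma and HCA for hepatocellular adenoma. T-HCC663 is named a carcinoma but was recorded as an adenoma by histology. Both Ctnnb1-mutated tumors came from p21+/Tert mice, so in this class the genotypes cannot be compared. The label of NT-662 bears a number that belongs to no tumor, and this liver was assigned to the mouse of T-HCC662 by elimination.

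In the acute phase response, hepatocytes change the proteins they secrete into plasma when infection, injury, or inflammation occurs elsewhere in the body. Cytokines of the IL-6 family act on hepatocytes through Stat3, and IL-1 and TNF act through NF-κB and C/EBP factors. The serum amyloid A proteins, haptoglobin, and the orosomucoids are classical positive members in the mouse, in which C-reactive protein responds only weakly. Measured in whole tissue, fewer cells of a type and less RNA per cell cannot be told apart.

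Each library held between 14571716 and 26170661 counted read pairs. Levels are given as CPM, that is, counts per 1000000 of the library size after TMM scaling. Hepatocyte markers were abundant in all 12 libraries, with a summed level of 35434 to 60640 CPM in livers and 20055 (T-HCC663) to 93017 CPM in tumors. NT-941 and NT-984 stood apart from the other 4 livers in the genes described here, and results that rest on them are given with and without them. This choice was made after their values were seen. The 10 genes took between 0.588% and 6.42% of all counts in a library.

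The Saa genes lie together on chromosome 7 (GRCm38), with Saa3 at chr7:46711998-46715700, Saa4 at chr7:46727998-46732603, Saa1 at chr7:46740497-46742980, and Saa2 at chr7:46751790-46754313. Saa2 is on the plus strand and the other Saa genes are on the minus strand. The orosomucoid genes lie side by side on the plus strand of chromosome 4, with Orm1 at chr4:63344560-63348163, Orm3 at chr4:63356162-63359511, and Orm2 at chr4:63362449-63365878. Hp is at chr8:109575128-109579172 (minus strand), Lcn2 at chr2:32384633-32388252 (minus strand), and Crp at chr1:172698055-172833031 (plus strand). All 10 are protein coding, and no exon of theirs overlaps an exon of another gene in the annotation. The Saa1 and Saa2 transcripts are 87.3% identical, and those of Orm1 and Orm2 are 91.0% identical. No stretch of 150 bases, the read length, was shared between a transcript of these genes and any other gene. Stretches of 50 bases were shared for 14.8% of Saa1, 9.12% of Saa2, 20.4% of Orm1, and 22.7% of Orm2. A short stretch of a read can thus match both genes of a pair, and how such reads were counted is not given in the sources used here.

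Sequence before the start site is printed for 5 genes whose levels bear on each other: Saa1 and Saa2, which varied together, their neighbor Saa4, which varied far less, and the neighbors Orm2 and Orm3. Each run holds the 250 bases before the RefSeq start (GRCm38.p6), written 5′ to 3′ on the strand of the gene, and capitals mark matches to the C/EBP-type motif TTNCNNAA on either strand.
Saa1, chr7:46742981-46743230, minus strand: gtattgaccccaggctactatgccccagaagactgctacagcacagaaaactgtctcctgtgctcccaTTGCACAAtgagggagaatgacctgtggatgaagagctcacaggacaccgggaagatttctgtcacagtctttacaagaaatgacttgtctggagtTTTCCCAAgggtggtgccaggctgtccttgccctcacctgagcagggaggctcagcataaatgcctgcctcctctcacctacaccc
Saa2, chr7:46751583-46751832, plus strand: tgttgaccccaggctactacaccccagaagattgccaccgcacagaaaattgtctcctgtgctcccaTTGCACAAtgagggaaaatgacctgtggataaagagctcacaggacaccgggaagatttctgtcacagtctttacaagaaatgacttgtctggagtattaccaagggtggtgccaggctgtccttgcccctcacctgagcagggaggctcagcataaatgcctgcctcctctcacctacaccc
Saa4, chr7:46732604-46732853, minus strand: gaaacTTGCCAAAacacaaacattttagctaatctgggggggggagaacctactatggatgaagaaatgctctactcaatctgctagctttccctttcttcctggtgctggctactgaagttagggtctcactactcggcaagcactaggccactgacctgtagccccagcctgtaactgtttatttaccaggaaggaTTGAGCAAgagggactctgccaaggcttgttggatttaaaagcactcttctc
Orm2, chr4:63362199-63362448, plus strand: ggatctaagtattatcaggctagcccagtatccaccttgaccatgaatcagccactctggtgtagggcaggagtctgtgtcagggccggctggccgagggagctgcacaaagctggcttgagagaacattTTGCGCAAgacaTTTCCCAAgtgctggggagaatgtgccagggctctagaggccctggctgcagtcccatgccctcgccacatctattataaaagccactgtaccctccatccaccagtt
Orm3, chr4:63355908-63356157, plus strand: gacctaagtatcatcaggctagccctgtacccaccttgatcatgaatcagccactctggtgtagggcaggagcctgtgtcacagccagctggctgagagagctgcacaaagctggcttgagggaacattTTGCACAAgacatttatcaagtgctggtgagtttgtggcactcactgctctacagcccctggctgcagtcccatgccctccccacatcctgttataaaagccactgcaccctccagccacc
The runs of Saa1 and Saa2 were 94.8% identical, those of Orm2 and Orm3 85.5%, and those of Saa1 and Saa4 46.3%. Saa1 and Saa2 both held TTGCACAA, which began 182 and 183 bases before the start, and Saa1 held a second match, TTTCCCAA, 86 bases before the start. Orm2 and Orm3 held a match at nearly the same place, 120 and 121 bases before the start, and Orm2 had another 108 bases before it. RefSeq windows of 300 bases (250 before the start and 50 after it) were held for 8 of the 10 genes, and for Hp and Orm1 none was. The C/EBP-type motif was present in 8 of these 8 windows, and in 40.7% of the 32851 windows of all genes. The Stat-type motif TTCNNNGAA was present in 0 of 8 windows, against 8.30% of all windows, and the NF-κB motif in 0 of 8, against 8.46%. All motifs were searched on both strands, and no match overlapped one of another motif. The matches are letters in a window and were not tested as binding sites.

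Most genes of the set reached their highest level in either of 2 livers, NT-941 and NT-984. Saa1, which encodes the inducible serum amyloid A carried on high-density lipoprotein, was at 19427 CPM in NT-941 and at 11563 CPM in NT-984. The other 4 livers had 281 (NT-662), 144 (NT-663), 71.2 (NT-992), and 587 CPM (NT-981). Saa2, its near-identical neighbor, was at 22446 CPM in NT-941 and at 12391 CPM in NT-984, and at 79.8 (NT-662), 50.9 (NT-663), 34.4 (NT-992), and 353 CPM (NT-981) in the others. One of these high livers is p21+/Tert and the other is p21+/TertCi. Saa1 and Saa2 together took 3.74% of all counts in NT-941 and 2.04% in NT-984, against 0.0107% to 0.101% in the other 4 livers.

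In the tumors of the same mice, most levels of Saa1 and Saa2 were below those of the liver. T-HCC662 had 51.6 CPM of Saa1, T-HCC663 had 264, T-HCC941 had 659.7, T-HCA992 had 42.5, TCi-HCC981 had 30.02, and TCi-HCA984 had 2950.1. Saa2 was at 34.1, 216, 720.0, 19.0, 11.1, and 1832 CPM in the same order. T-HCC941 and TCi-HCA984 were the highest of the 6, as NT-941 and NT-984 were of the livers, but livers and tumors overlapped. Relative to the liver of the same mouse, on the scale of log2(CPM + 1), Saa1 was lower in 5 of 6 tumors, by 4.88 in T-HCC941 and 4.24 in TCi-HCC981, and higher by 0.87 in T-HCC663. Saa2 showed the same split, with 5 tumors lower and T-HCC663 higher by 2.06.

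**Figure D1:**
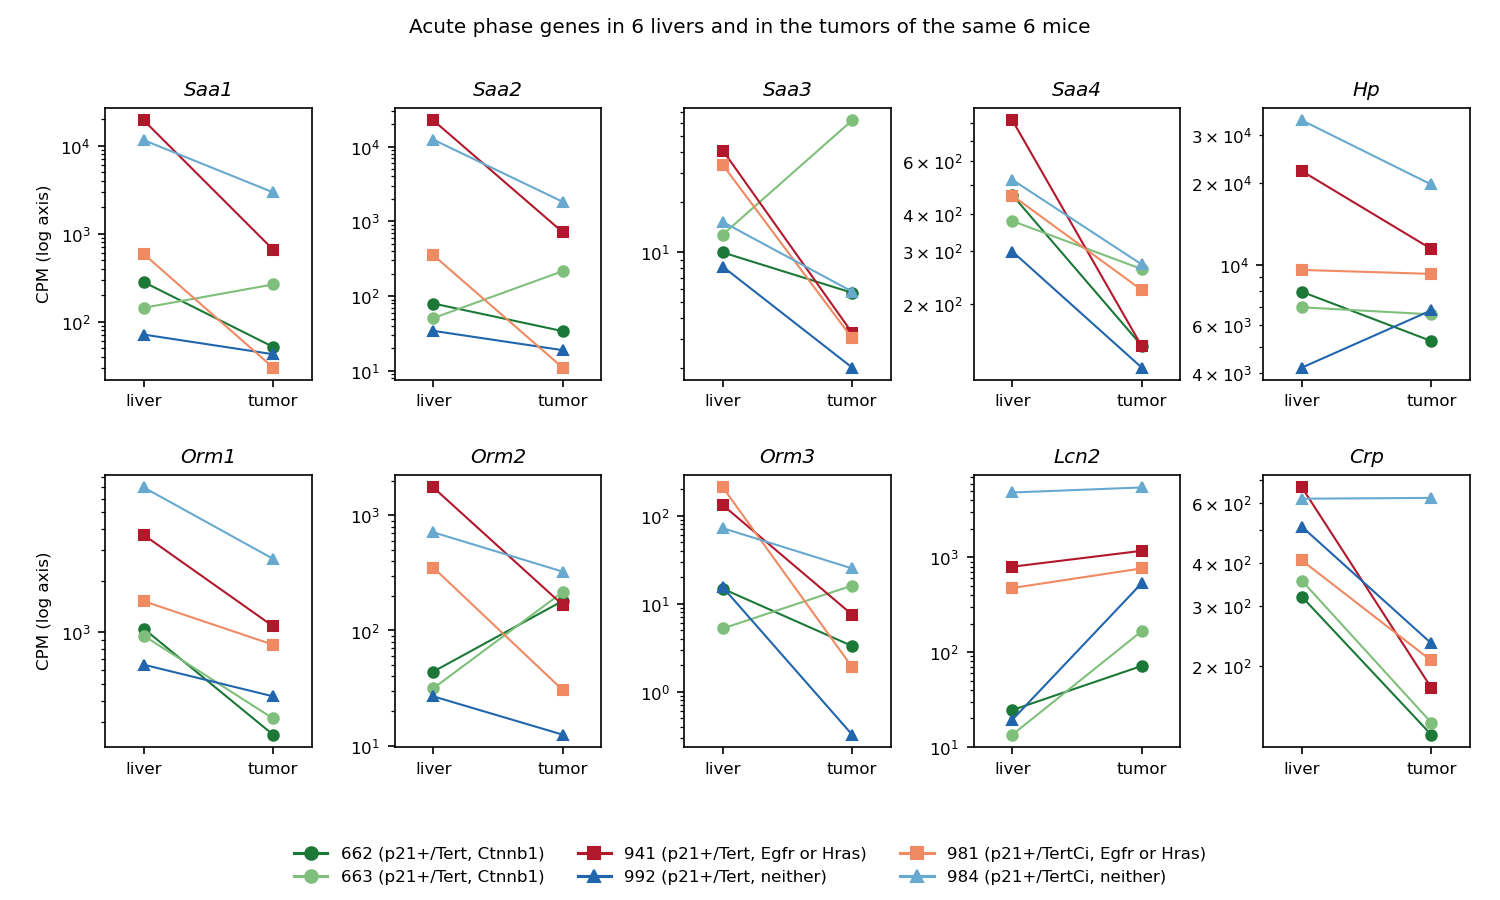
Level of each of the 10 acute phase genes in the non-tumoral liver and the tumor of each mouse (CPM, log axis), with 1 line per mouse, colors for mice and symbols for driver classes. Saa1 and Saa2 reach 11563 CPM or more only in NT-941 and NT-984, Saa4 is lower in every tumor than in every liver, and each of the 6 lines of Lcn2 ends higher in the tumor.

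These livers were high in most of the set. Both NT-941 and NT-984 exceeded each of the other 4 livers in 8 of 10 genes (Saa1, Saa2, Saa4, Hp, Orm1, Orm2, Lcn2, and Crp), a pattern met by 7.95% of the 13822 genes tested. Because these livers were picked from the values of this set, the count is a description. Saa3 and Orm3 did not follow it. Orm3 was highest in NT-981 (209 CPM), followed by NT-941 (132) and NT-984 (72.0). Markers of neutrophils summed to 41.3 CPM in NT-941, 18.7 in NT-984, and 33.9 in NT-981, against 6.34 to 8.98 in the other 3, and their part in these levels was not tested.

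The ratio of Saa2 to Saa1 also differed among livers. It was 1.16 in NT-941 and 1.07 in NT-984, against 0.283 (NT-662), 0.354 (NT-663), 0.483 (NT-992), and 0.603 (NT-981). Saa2 thus exceeded Saa1 only in the livers where both were highest. Among tumors the ratio ran from 0.370 (TCi-HCC981) to 1.09 (T-HCC941), and TCi-HCA984, which had more Saa1 than T-HCC941, had 0.621. Ratios of counts are within 1 library and do not correct for length.

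**Figure D2:**
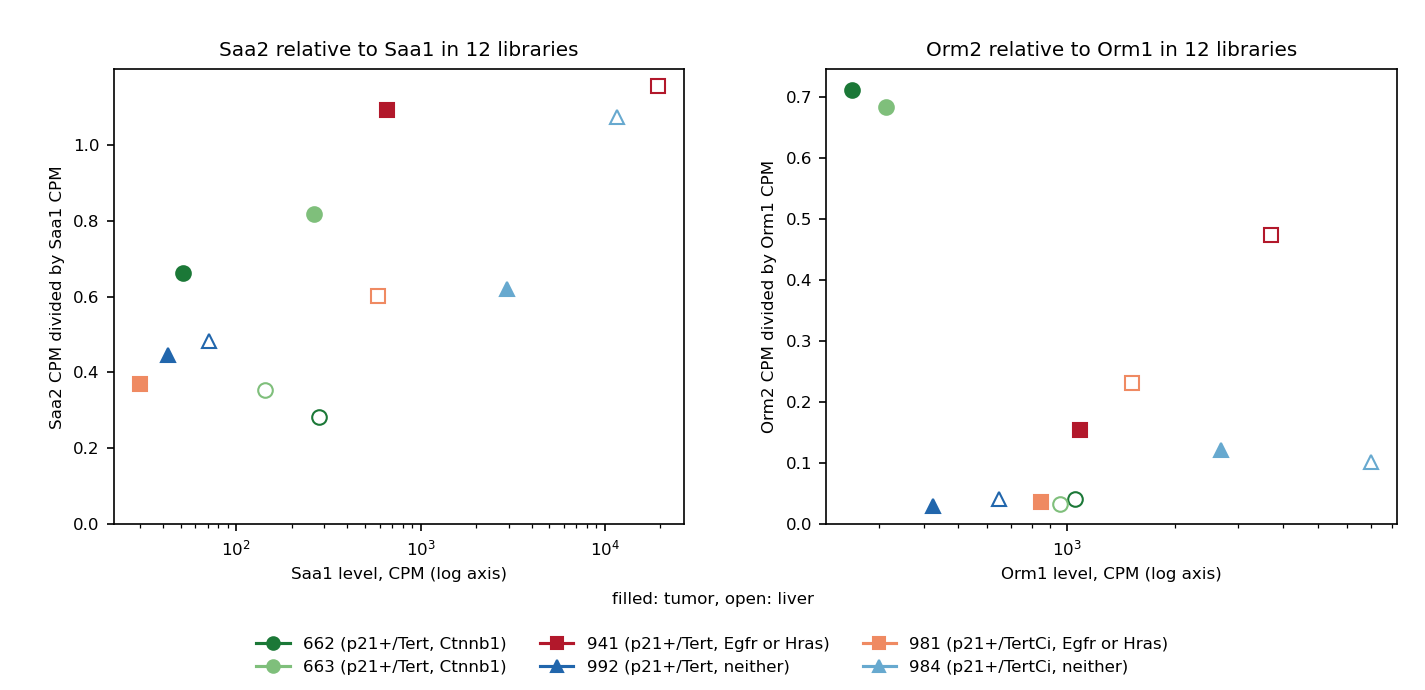
Ratio of Saa2 to Saa1 (left) and of Orm2 to Orm1 (right) in each of the 12 libraries, against the level of the denominator gene (CPM, log axis), with open symbols for livers and filled ones for tumors. The ratio of Saa2 to Saa1 passes 1 in both high livers and in T-HCC941, and the ratio of Orm2 to Orm1 is 0.712 and 0.683 in the Ctnnb1-mutated tumors.

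Spread between livers was among the widest in the genome for several of these genes. The SD of log2(CPM + 1) across the 6 livers was 4.10 for Saa2, the widest of 13822 genes. It was 3.46 for Lcn2 (rank 5), 3.36 for Saa1 (rank 7), 2.57 for Orm2 (rank 17), and 2.01 for Orm3 (rank 42), against a median of 0.32 over all genes. Saa4 and Crp varied least of the set, with SDs of 0.48 and 0.43. In tumors Saa2 again had the widest SD of the set, at rank 31.

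Saa4, which encodes the constitutive serum amyloid A, fell in tumors. Livers had 461 (NT-662), 379 (NT-663), 818 (NT-941), 299.7 (NT-992), 459.99 (NT-981), and 519 CPM (NT-984). Tumors had 146, 262, 145, 123, 223, and 272 CPM in the same order of mice. Every tumor was below every liver, and Saa4 was the only one of the 10 genes with no overlap, a pattern met by 2.24% of genes (310 of 13822). Group means were 489 ± 178 CPM in livers and 195 ± 65.1 CPM in tumors (SD, n = 6 each). The log2 fold change was -1.33 (SE 0.29), a level 2.51-fold lower in tumors, with an adjusted p of 0.0111 by the quasi-likelihood test of edgeR with Benjamini-Hochberg adjustment. Without NT-941 and NT-984 it was -1.02 with an adjusted p of 0.0554, and without both mice (livers and tumors) -1.05 with an adjusted p of 0.101, by the same test.

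Across all tumors against all livers, 1 of the 10 genes (Saa4) passed the threshold of an adjusted p under 0.05, against 10.7% of all genes (3.91% lower). By that count the set did not stand above the genome. Of the fold changes, 9 of 10 were below 0, against 6786 of 13822 over all genes tested. The median was -1.37, against 0.01 over all genes. NT-941 and NT-984 exceeded the other livers in 8 of the 10 genes, so these signs are not independent. The values of Saa1 (-3.004, SE 1.53, adjusted p = 0.235) and Saa2 (-3.64, SE 1.76, adjusted p = 0.209) were large but did not pass, with SDs between livers of 3.36 and 4.10 on the log2 scale. Without NT-941 and NT-984, they were 1.31 and 1.88, with adjusted p of 0.603 and 0.479 by edgeR. That fit keeps T-HCC941 and TCi-HCA984, the highest tumors in both genes, so the sign depends on which libraries are kept. With these tumors left out too, Saa1 ran from 71.2 to 587 CPM in livers and from 30.02 to 264 CPM in tumors. Saa2 ran from 34.4 to 353 CPM in livers and from 11.1 to 216 CPM in tumors. With only NT-941 and NT-984 left out, Hp and Orm2 were at 0.47 each, also with the opposite sign.

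**Figure D3:**
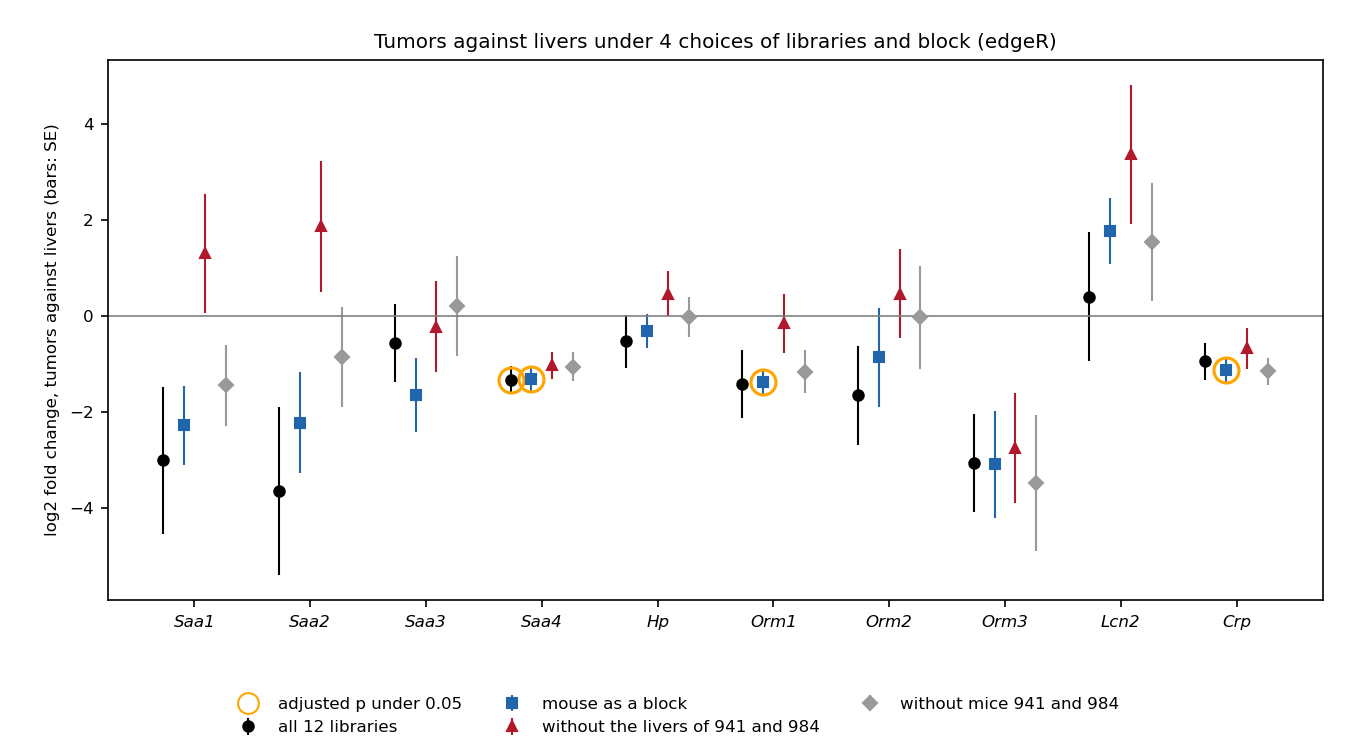
Log2 fold change of each gene in tumors against livers, with SE, in all 12 libraries, with the mouse as a block, without NT-941 and NT-984, and without both these mice. Orange rings mark an adjusted p under 0.05, which Saa4 has with all libraries and Saa4, Orm1, and Crp have with the mouse as a block. Saa1 and Saa2 lie above 0 when NT-941 and NT-984 are left out and the tumors of these mice are kept.

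The mouse as a block sets each tumor against the liver of the same animal. In that fit 3 of the 10 genes passed, against 2202 of all 13822 genes (1008 lower). Saa4 was at -1.32 (adjusted p = 0.0164), Orm1 -1.38 (SE 0.27, adjusted p = 0.0147), and Crp -1.13 (SE 0.25, adjusted p = 0.0238) by edgeR. Lcn2 was at 1.77 (SE 0.68, adjusted p = 0.114) in that fit.

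**Figure D4:**
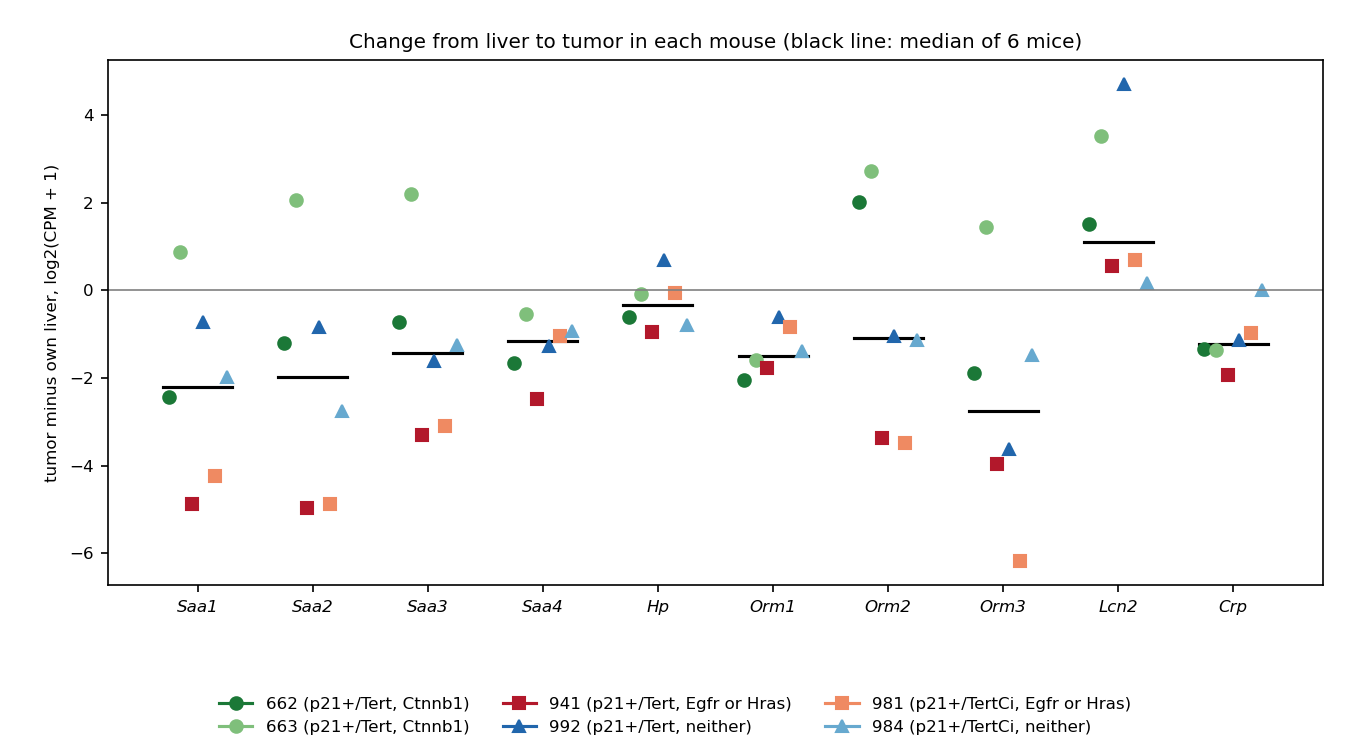
Difference between each tumor and the liver of the same mouse in log2(CPM + 1), for 10 genes and 6 mice, with a black line at the median. Saa4 and Orm1 lie below 0 in 6 of 6 mice, Lcn2 lies above 0 in 6 of 6, and Orm2 lies above 0 in both mice with Ctnnb1-mutated tumors and below 0 in the other 4.

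Orm1, the most abundant of the orosomucoids (α1-acid glycoproteins, which bind drugs and other small ligands in plasma), was also highest in NT-941 and NT-984. It was at 1051 (NT-662), 956 (NT-663), 3693 (NT-941), 648 (NT-992), 1519 (NT-981), and 6986 CPM (NT-984) in livers, and at 254, 315, 1086, 424, 848, and 2682 CPM in the tumors. Each tumor was below its own liver, by 0.61 to 2.05 on the log2 scale, although the groups overlapped. Of the 10 genes, 2 (Saa4 and Orm1) were below the own liver in 6 of 6 mice, a pattern met by 11.9% of genes. The unpaired fold change of Orm1 was -1.41 (SE 0.71, adjusted p = 0.229, edgeR).

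Crp encodes C-reactive protein, a pentraxin that binds phosphocholine on damaged cells and microbes. Livers had 319, 355, 664, 510.3, 407, and 616 CPM (NT-662, NT-663, NT-941, NT-992, NT-981, and NT-984). Tumors had 126, 137, 173, 233, 208, and 619 CPM. TCi-HCA984 was at the level of its own liver, and the other 5 tumors were below every liver. The unpaired log2 fold change of -0.94 (SE 0.38) did not pass (adjusted p = 0.138, edgeR). Without TCi-HCA984 it was -1.45 (adjusted p = 0.00532 by the same test).

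Hp encodes haptoglobin, which binds free hemoglobin, and by median it was the most abundant of the set per length of transcript. Its median was 6512 CPM per kb in livers and 5967 in tumors, ahead of Orm1 (1658 and 820.4) and Saa1 (713 and 259). In NT-941, however, Saa1 (31899 CPM per kb) and Saa2 (34426) were above Hp (16401). Livers ranged from 4190.1 (NT-992) to 33895 CPM (NT-984) and tumors from 5244 (T-HCC662) to 19709 CPM (TCi-HCA984). NT-941, NT-984, and the tumors of the same mice were the highest of their groups. The log2 fold change was -0.52 (SE 0.55, adjusted p = 0.595, edgeR), within the spread of either group.

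For Orm2, another orosomucoid, the direction from liver to tumor split by driver class. Livers had 43.9 (NT-662), 31.5 (NT-663), 1748 (NT-941), 26.8 (NT-992), 352 (NT-981), and 713 CPM (NT-984), and tumors had 181, 215, 167, 12.5, 30.5, and 325 CPM. Both Ctnnb1-mutated tumors were above their own livers, by 2.01 (T-HCC662) and 2.74 (T-HCC663) on the log2 scale, and the other 4 were below theirs, by 1.05 to 3.49. The ratio of Orm2 to Orm1 was 0.712 in T-HCC662 and 0.683 in T-HCC663, against 0.0294 to 0.154 in the other 4 tumors. In livers it ran from 0.0329 to 0.473, the highest in NT-941. No test was made of these ratios or of the split, and the share of all genes with such a split was not counted. The level of Orm2 in Ctnnb1-mutated against other tumors did not pass the test (log2 fold change 0.62, adjusted p = 0.824, edgeR).

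Orm3, the neighbor of Orm2, was at 14.7, 5.22, 132, 15.3, 209, and 72.0 CPM in livers and at 3.29, 16.0, 7.49, 0.324, 1.90, and 25.1 CPM in tumors. It was below the own liver in 5 of 6 mice, and above it in T-HCC663. The log2 fold change was -3.05 (SE 1.02) with an adjusted p of 0.0733 by edgeR. DESeq2 gave the same fold change with an adjusted p of 0.0163.

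Lcn2 was the only gene of the set with a log2 fold change above 0 in tumors against livers. It encodes lipocalin 2, which withholds iron from bacteria by binding their siderophores and is made by hepatocytes and by neutrophils. Livers had 24.4 (NT-662), 13.4 (NT-663), 797 (NT-941), 19.3 (NT-992), 475 (NT-981), and 4842 CPM (NT-984). Tumors had 71.4, 166, 1173, 533, 765, and 5474 CPM in the same order. Each tumor exceeded its own liver, by 0.18 (TCi-HCA984) to 4.71 (T-HCA992) on the log2 scale with a median of 1.10. Lcn2 was the only one of the 10 genes to do so, a pattern met by 10.8% of genes. Levels overlapped widely between groups, since NT-984 exceeded 5 of the 6 tumors, and the unpaired log2 fold change was 0.41 (SE 1.34, adjusted p = 0.883, edgeR). Without NT-941 and NT-984 it was 3.37 (SE 1.46, adjusted p = 0.206), in a fit that keeps T-HCC941 and TCi-HCA984, the highest tumors. With these tumors left out too, Lcn2 ran from 13.4 to 475 CPM in livers and from 71.4 to 765 CPM in tumors. With 1 library left out at a time, the log2 fold change ran from -0.93 (adjusted p = 0.706), without TCi-HCA984, to 2.36 (adjusted p = 0.291), without NT-984. Its sign in the fit of all tumors against all livers thus depends on 1 tumor. Summed neutrophil markers were 5.30 (T-HCC662) to 28.2 CPM (TCi-HCC981) in tumors and 6.34 to 41.3 CPM in livers. The sum was 18.7 CPM in NT-984, which had the most Lcn2 of the livers, and 6.34 to 8.98 CPM in the 3 livers with the least. The part of neutrophils in the level of Lcn2 was not tested.

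Saa3 is made by macrophages and fat cells as well as by hepatocytes. It was the least abundant Saa gene, at 9.97, 12.8, 41.1, 8.18, 33.6, and 15.2 CPM in livers and 5.70, 62.5, 3.27, 2.02, 3.03, and 5.79 CPM in tumors. T-HCC663 was the highest of all 12 libraries, and the other 5 tumors were below every liver. Without T-HCC663 the log2 fold change of tumors against livers was -2.34 (SE 0.48, adjusted p = 0.0101, edgeR), and with it -0.55 (SE 0.81, adjusted p = 0.712). Summed macrophage markers were 709 CPM in T-HCC663, below TCi-HCC981 (1226) and above the other 4 tumors (133 to 270.02), and their part was not tested. The 5 adipocyte markers summed to 3.21 to 20.045 CPM in livers and 13.8 to 45.1 CPM in tumors, with 16.3 CPM in T-HCC663. Most of the sum in tumors was Fabp4, at 2.85 to 6.96 CPM in livers and 13.7 to 39.1 CPM in tumors (log2 fold change 2.53, adjusted p = 0.000835, edgeR). Lep was at 0 in all 12 libraries and Adipoq in all 6 tumors. The part of fat cells in the level of Saa3 was not tested.

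In the p21+/Tert mice alone, 2 of the 10 genes passed, both lower in tumors, against 6.49% of all genes (2.30% lower). Saa4 had a log2 value of -1.54 (SE 0.35, adjusted p = 0.0273) and Crp -1.48 (SE 0.39, adjusted p = 0.0460) by edgeR. With 4 mice, these calls rested on few libraries. Crp missed the threshold without any 1 of the 8 libraries (adjusted p 0.05003 to 0.123), and Saa4 without NT-662, NT-663, NT-941, T-HCC941, or T-HCA992 (adjusted p 0.0562 to 0.0758). Without NT-941 and NT-984, Saa4 was at -1.13 (adjusted p = 0.0962) and Crp at -1.21 (adjusted p = 0.151) by edgeR. With the mouse as a block, Saa4 (-1.50, adjusted p = 0.0354), Orm1 (-1.52, adjusted p = 0.0363), and Crp (-1.45, adjusted p = 0.0190) passed by edgeR. Over all genes 1307 of 15182 (522 lower) passed in that fit.

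In the p21+/TertCi mice, with 2 tumors and 2 livers, 0 of the 10 genes passed, against 0.0% of all genes by edgeR (1618 at an unadjusted p under 0.05, and 362 calls by DESeq2). Saa4 was at -0.995 (adjusted p = 0.497) and Crp at -0.31 (adjusted p = 0.875). The change from liver to tumor was not shown to differ between genotypes for any of the 10 genes (adjusted p = 0.9999, edgeR), against a background of 0.0% of all genes called (556 at an unadjusted p under 0.05, 6 calls by DESeq2). Between p21+/TertCi and p21+/Tert livers, 0 of the 10 passed, against 0.0% of all genes (756 unadjusted, 42 by DESeq2), and Lcn2 came nearest with a log2 difference of 3.64 (SE 1.66, adjusted p = 0.930). Between p21+/TertCi tumors and p21+/Tert tumors of the same driver classes, with 2 on each side, 0 passed, against 0.0% of all genes (1166 unadjusted, 98 by DESeq2).

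Both Ctnnb1-mutated tumors were below the other 4 in 4 of 10 genes (Hp, Orm1, Lcn2, and Crp), a pattern met by 19.5% of genes, and above them in none. For Lcn2 the Ctnnb1-mutated tumors had 71.4 and 166 CPM against 533 to 5474 CPM in the others, with a log2 fold change of -3.84 (adjusted p = 0.285, edgeR). Crp was at -1.11 (adjusted p = 0.105), Orm1 at -2.10 (adjusted p = 0.194), and Hp at -0.98 (adjusted p = 0.453). One gene of the 10 passed, against 12.5% of all genes (6.76% higher): Saa3, at 3.29 (SE 0.82, adjusted p = 0.0269). With the tumors fitted without the livers it was 3.32 and did not pass (adjusted p = 0.0657, edgeR). The call also rests on T-HCC663, without which the value was 0.73 (adjusted p = 0.627). It was also missed without T-HCC941 (adjusted p = 0.0615), T-HCA992 (0.0810), or TCi-HCC981 (0.0818) by edgeR. T-HCC662 had 5.70 CPM of Saa3, close to the 5.79 of TCi-HCA984. The median of the 10 genes was -1.04, against -0.00 over all genes.

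Between Egfr- or Hras-mutated tumors and those with neither kind of mutation, 0 of the 10 genes passed, against 0.0% of all genes by edgeR (1331 at an unadjusted p under 0.05, 105 calls by DESeq2). Crp came nearest, at -1.18 (adjusted p = 0.542), and T-HCC941 and TCi-HCC981 had 173 and 208 CPM against 233 and 619 CPM in T-HCA992 and TCi-HCA984. T-HCC941 and TCi-HCC981 were carcinomas and T-HCA992 and TCi-HCA984 adenomas, so driver class and histology cannot be told apart in this comparison.

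Acute phase genes respond to cytokines that reach the liver through the blood, so the level in each liver was set beside that in the tumor of the same mouse. The levels of Saa1, Saa2, Hp, and Orm1 in livers fell into separate clusters, with NT-941 and NT-984 apart from the rest, and those of Lcn2 split into NT-941, NT-981, and NT-984 and the rest. Each cluster holds too few mice for a correlation within it. Across 6 mice r was 0.76 to 0.91 for these genes (adjusted exact permutation p 0.0602 to 0.231). These values rest on the gap between clusters, so no relation is read from them. T-HCC941 and TCi-HCA984 were the highest of the 6 tumors in all 5 of these genes. Crp showed no such clusters, and r across 6 mice was 0.64 in log2(CPM + 1) (exact permutation p = 0.139, 0.231 adjusted over 10 genes), with a Spearman rho of 0.66 (exact permutation p = 0.175, adjusted 0.438). Without the 2 mice farthest from the median liver (those of NT-662 and NT-941), r of Crp was 0.93 over the 4 mice left, too few to test. With the 2 farthest mice of each gene left out, r ran from -0.51 (Saa2) to 0.93 (Crp) over the 10 genes. Of the 10 relations computed, 0 passed after adjustment.

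Of genes outside the set, those whose levels followed Saa1 most closely over the 12 libraries were Spata1 (Pearson r 0.92 in log2(CPM + 1)), the metallothioneins Mt1 (0.91) and Mt2 (0.90), which bind zinc and copper, 9530077C05Rik (0.91), and Slc25a40 (0.89). Within the set r with Saa1 was 0.99 for Saa2, 0.89 for Hp, 0.86 for Orm1 and Orm2, and 0.67 for Saa4. Mt1 ranged from 6.69 to 2503 CPM in livers. Closest to Lcn2 were Litaf (0.95), Fam92a (0.92), Dstn (0.91), Zfp800 (0.91), and Mcf2l (0.89), and within the set Hp (0.80), while Saa4 was at -0.00. These points share mice and tissues, and the values are descriptions.

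The rest of the pathway was described from lists. Of 27 other positive acute phase genes, 26 were tested, 2 rose in tumors, 2 fell, and 22 did not pass (median log2 fold change -0.33). Over all genes 10.7% passed in this comparison, and the counts of this list and of those that follow are to be read against that share. Cd14, the co-receptor for lipopolysaccharide, was at 4.10 ± 4.18 CPM in livers and 65.5 ± 54.4 CPM in tumors (SD, n = 6) and rose by 3.97 (SE 0.84, adjusted p = 0.00999, edgeR). Il1rn, which encodes the antagonist of the IL-1 receptor, rose by 3.58 (adjusted p = 0.0162). Both were higher in 6 of 6 tumors than in the own liver. Hamp, which encodes the iron hormone hepcidin, fell from 1721 ± 603 CPM to 136 ± 214 CPM, by 3.67 on the log2 scale (SE 0.86, adjusted p = 0.0167). Its near-copy Hamp2 fell by 2.63 (adjusted p = 0.0327) and is named for being among the few that passed. The abundant Hpx (-0.59, adjusted p = 0.480), C3 (-0.12, adjusted p = 0.895), and Fga (-0.18, adjusted p = 0.899) did not pass.

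Among 13 negative acute phase genes, which fall in inflammation, only Igf1 passed, with 732 ± 133 CPM in livers and 202 ± 87.2 CPM in tumors (log2 fold change -1.86, SE 0.30, adjusted p = 0.00274, edgeR). The list had a median of -0.15. Alb was at 1.10 (adjusted p = 0.267), Apoa2 at -0.97 (adjusted p = 0.0753), and Ttr at -0.64 (adjusted p = 0.225). Alb was 9667 CPM in NT-941, the lowest liver, and 20251 CPM in NT-984, within the range of the rest.

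Of 10 cytokine genes, 5 were abundant enough to test, and Lif, a cytokine of the IL-6 family, rose from 0.109 ± 0.152 to 8.22 ± 6.96 CPM (log2 fold change 6.00, SE 1.02, adjusted p = 0.00353, edgeR). Il6 was at or below 0.565 CPM everywhere, and Il22 and Il17a were at 0 in all 12 libraries. Il1b (0.59, adjusted p = 0.655) and Il1a (0.40, adjusted p = 0.665) did not pass. Of 11 receptor genes, 1 fell: Il1rap, the partner chain of the IL-1 receptor, from 202 ± 45.0 to 81.5 ± 16.99 CPM (-1.31, SE 0.19, adjusted p = 0.00173). Osmr, the receptor of oncostatin M, was at 1.72 (adjusted p = 0.0682), and Lifr at -0.63 (adjusted p = 0.195).

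Among 13 transcription factor genes, Relb (1.91, adjusted p = 0.00698) and Nfkb2 (0.94, adjusted p = 0.0111), both of the NF-κB family, rose, and Cebpa, a regulator of hepatocyte genes, fell (-0.80, adjusted p = 0.0241, edgeR). Each went the same way in 6 of 6 mice. Of 10 feedback and early response genes, Tnfaip3, an inhibitor of NF-κB signaling, rose by 1.71 (adjusted p = 0.00986). Of 12 genes for receptors and partners of the proteins, 11 were tested. Tlr2 (1.79, adjusted p = 0.0399) and Scarb1, a receptor for high-density lipoprotein (0.69, adjusted p = 0.0229), rose by edgeR.

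**Figure D5:**
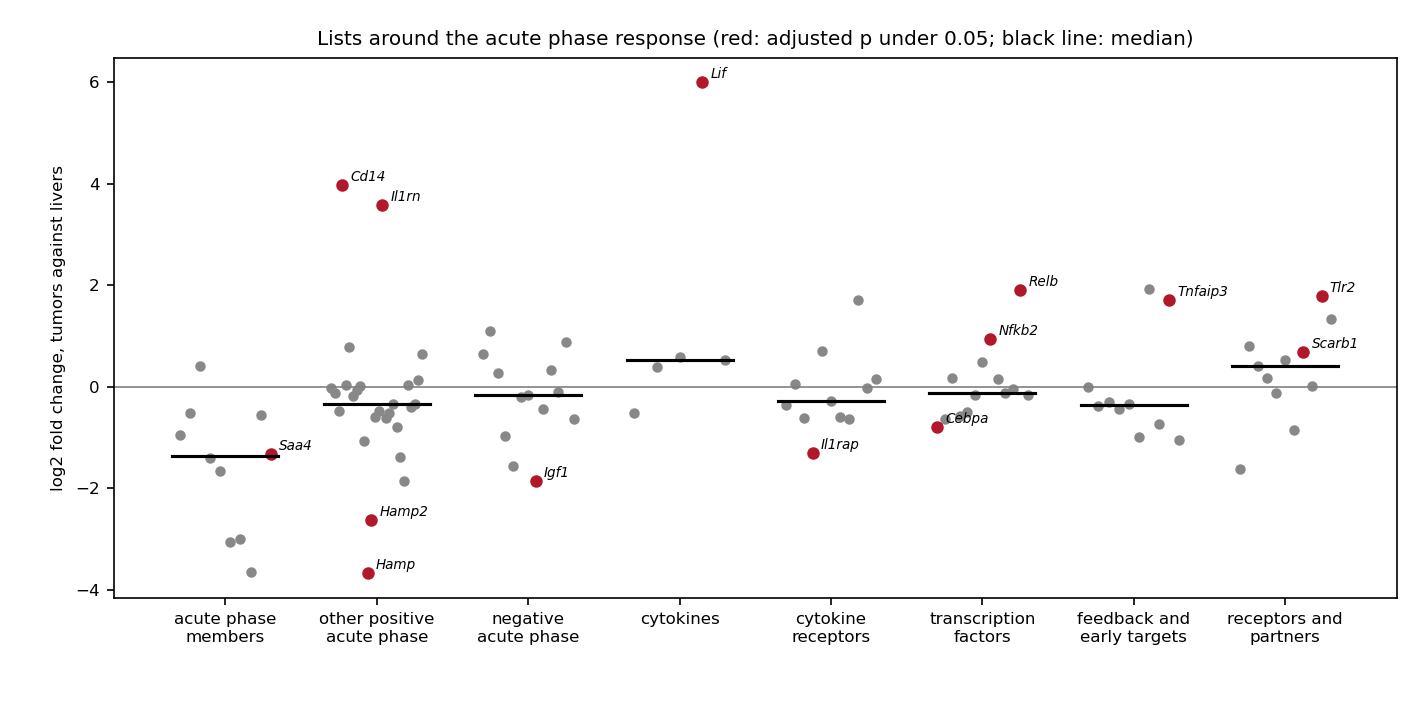
Log2 fold change in tumors against livers of each tested gene in the set and in 7 lists around the acute phase response, with red points for an adjusted p under 0.05 and a black line at the median. The median of the set is -1.37 and those of the other lists lie between -0.36 and 0.52.

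In Ctnnb1-mutated against other tumors, the other positive acute phase genes had a log2 fold change below 0 in 26 of 27 cases, with a median of -2.20. Over all genes 7623 of 15182 were below 0. The genes were measured in the same tumors, so the 26 are not independent observations. Of the 27 genes, 4 passed, against 12.5% of all genes in either direction (870 of 15182 lower). These were Fga (-3.08, adjusted p = 0.0357) and Fgg (-2.90, adjusted p = 0.0370), which encode fibrinogen chains, Serpina3k (-2.99, adjusted p = 0.0353), and Cp, which encodes the copper carrier ceruloplasmin (-1.81, adjusted p = 0.0264), by edgeR. Of the negative acute phase genes, Alb, Trf, and Ahsg were also lower (-2.47, -1.80, and -2.04, adjusted p 0.0377 to 0.0480). Stat3 (-1.60, adjusted p = 0.0339), Nfkb1 (-1.09, adjusted p = 0.0339), and Osmr (-2.67, adjusted p = 0.0169) were lower too. These 10 genes are named as the ones that passed in their lists. Summed hepatocyte markers were 36601 and 20055 CPM in T-HCC662 and T-HCC663, against 66587 to 93017 CPM in the other 4 tumors. Most of this sum was Alb, with 71534 of the 93017 CPM in T-HCC941, and Alb is itself among the genes named above. Of the 6 hepatocyte markers, 5 had a log2 fold change below 0, and 3 passed as lower and 1 as higher. Besides Alb, Cps1 (-3.13, adjusted p = 0.00562) and Serpina1c (-2.36, adjusted p = 0.0103) were lower by edgeR. The markers did not move as one. Cyp2e1, an enzyme of drug metabolism, was higher (3.75, adjusted p = 0.00591) and Ttr was at -0.05 (adjusted p = 0.958) by edgeR. Cyp2e1 was at 5770.5 (T-HCC662) and 5003.5 CPM (T-HCC663), within the range of livers (3994 to 6431 CPM). The other 4 tumors had 75.7 to 1890 CPM, below every liver. The part of hepatocyte content in these differences was not tested.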

How the data were processed

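The authors sequenced poly(A) RNA as 150-base read pairs, discarded poor reads, mapped the others by Subread on mm10 plus mCherry, and counted genes by featureCounts 1.6.4. The deposited counts are whole numbers per gene symbol, without normalization. Annotation release, strand setting, and handling of reads with several alignments are not given in the sources used here. The authors tested with DESeq2 and a term for the sequencing run, which the labels do not give.

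Here counts were scaled (TMM), filtered (filterByExpr), and tested with the quasi-likelihood F test of edgeR 4.0.16 in R 4.3.3, with Benjamini-Hochberg adjustment over all genes tested and a threshold of 0.05. Tumors against livers used all 12 libraries with tissue as the only term. Comparisons within and between genotypes used 4 groups of genotype and tissue, and those of driver classes used livers and 3 tumor classes, in 1 model each. The SE is the log2 fold change divided by the square root of F. Each sample is 1 mouse, and each tumor pairs with the liver of the same animal. As a check, deviations from group means correlated with the own liver at r of 0.191 (NT-662), 0.045 (NT-663), 0.04 (NT-941), 0.443 (NT-992), 0.548 (NT-981), and 0.548 (NT-984). The median r with the other livers was -0.045, 0.074, -0.03, -0.109, -0.102, and -0.116 in the same order. For T-HCC663 the own liver was below that median, so the check does not bear out this pair. With 2 p21+/TertCi mice the deviations mirror each other, so NT-981 and NT-984 must share 1 value. Alternatives were DESeq2 1.42.0, RLE size factors, every gene with a count, the mouse as a block, the libraries of the compared groups only, carcinomas alone, each library left out, and a pseudocount of 0.1 in place of 1 CPM. The fit of carcinomas alone left out the mice of T-HCA992 and TCi-HCA984 and kept T-HCC663, recorded as an adenoma by histology. The test scripts were tested on simulated data. Positions are from GENCODE on GRCm38.

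The genes, the lists, and the tests were chosen with earlier results of these data known. All 10 genes are named, and from each list the 3 of smallest p and the 3 of highest level in tumors against livers could be named. Counting error is small at these depths, except for genes near 0 CPM.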

Additional observations from a re-analysis of the deposited data

Results flagged for a closer look

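Groups of 4 to 10 libraries were examined for a library far from the others, and chance marks about 1 in 20 of them. In the 4 p21+/Tert livers, NT-941 was far above the other 3 in Saa2 (22446 CPM against 34.4 to 79.8), Orm2 (1748 CPM against 26.8 to 43.9), and Lcn2 (797 CPM against 13.4 to 24.4). Among the 6 tumors, T-HCC663 was far above the others in Saa3, at 62.5 CPM against 2.02 to 5.79. Among the 4 p21+/Tert tumors, T-HCA992 was far below the others in Orm2, at 12.5 CPM against 167 to 215. In all, 50 groups were examined.

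The change of Orm2 from liver to tumor had opposite signs by driver class. It was higher in both Ctnnb1-mutated tumors than in the livers of the same mice and lower in the other 4, and the mean log2 changes of the classes differed by 4.64. This difference was not tested, and both Ctnnb1-mutated tumors came from p21+/Tert mice.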

How the results depend on the processing

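In all tumors against livers, 1 of the 10 genes passed. The count was 3 with the mouse as a block (Saa4, Orm1, and Crp), 2 in carcinomas alone (Saa4 and Crp), 2 with DESeq2 (Saa4 and Orm3), 0 without NT-941 and NT-984, 0 without both these mice, and 1 to 3 with each library left out. In p21+/Tert mice, 2 passed, 0 without NT-941 and NT-984, and 0 to 1 with each library left out. In Ctnnb1-mutated against other tumors, 1 passed, 0 with the tumors alone, 2 with DESeq2 (Saa3 and Crp), and 0 to 1 with each library left out. In the other comparisons 0 passed under every alternative run. DESeq2 gave no adjusted p for 6 of the 10 genes in the models of 4 groups.

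The fits without NT-941 and NT-984 kept the tumors of these mice. In them the sign turned in all tumors for Saa1 (1.31), Saa2 (1.88), Hp (0.47), and Orm2 (0.47). The sign also turned in p21+/Tert mice for Saa1 (0.66), Saa2 (2.21), Hp (0.27), and Orm2 (2.11), and in p21+/TertCi mice for Saa1 (1.36), Saa2 (1.40), Hp (0.61), and Orm1 (0.23). With the mouse as a block it turned for Saa3 (-1.16) and Orm2 (0.20) in p21+/Tert mice and for Saa1 (-1.41), Saa2 (-2.74), and Orm2 (-2.54) in the difference between genotypes. These were log2 values that passed no test, and the cause was not tested. The block changed no call other than those named here and in the report.

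With each library left out, log2 values ran across 0 in all tumors against livers for Lcn2 (-0.93 to 2.36), and in p21+/Tert mice for Saa1 (-5.39 to 0.61), Saa2 (-5.99 to 2.15), Saa3 (-2.29 to 0.82), Hp (-0.74 to 0.23), and Orm2 (-2.09 to 2.07). They did so in p21+/TertCi mice for Saa1 (-7.69 to 1.35), Saa2 (-9.20 to 1.39), Hp (-1.26 to 0.59), Orm1 (-2.36 to 0.21), Lcn2 (-1.83 to 2.72), and Crp (-1.33 to 0.27). For the difference between genotypes they did so for Saa1 (-3.38 to 5.66), Saa2 (-4.95 to 5.92), Hp (-0.82 to 1.06), Orm1 (-0.73 to 1.84), Orm2 (-3.66 to 0.98), Orm3 (-3.59 to 0.21), and Lcn2 (-4.44 to 1.55). Between livers of the genotypes they did so for Saa1 (-3.09 to 5.21), Saa2 (-4.00 to 6.86), Saa3 (-0.23 to 1.24), Saa4 (-0.19 to 0.37), Hp (-0.11 to 1.77), Orm1 (-0.0664 to 2.27), Orm2 (-0.40 to 3.97), and Crp (-0.19 to 0.42). For Ctnnb1-mutated tumors they did so for Saa1 (-3.78 to 0.39), Saa2 (-4.07 to 0.59), Saa4 (-0.36 to 0.46), and Orm3 (-1.20 to 2.96). For Egfr- or Hras-mutated tumors they did so for Saa1 (-5.66 to 3.01), Saa2 (-6.40 to 4.26), Saa3 (-0.90 to 0.63), Saa4 (-0.58 to 0.57), Hp (-0.95 to 0.60), Orm1 (-1.50 to 1.18), Orm2 (-2.49 to 2.98), Orm3 (-2.75 to 3.82), and Lcn2 (-2.52 to 0.85). Between tumors of the genotypes within classes they did so for Saa1 (-4.46 to 6.13), Saa2 (-6.02 to 6.61), Saa3 (-0.11 to 1.53), Hp (-0.31 to 1.55), Orm1 (-0.36 to 2.67), Orm2 (-2.46 to 4.72), Orm3 (-1.98 to 6.26), and Lcn2 (-0.62 to 3.37). The r of liver with tumor crossed 0 for Saa4 (-0.58 to 0.58), Orm2 (-0.0936 to 0.54), and Orm3 (-0.33 to 0.37). It turned for Orm3 with a pseudocount of 0.1 CPM (0.0244) and, over the 4 mice left without the 2 farthest, which are too few to test, for Saa1 (-0.36), Saa2 (-0.51), Saa3 (0.51), Saa4 (-0.0912), Orm2 (-0.23), and Orm3 (0.74).

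Over all genes, 1477 passed in tumors against livers, 2202 with the mouse as a block, 622 in carcinomas alone, 2407 with DESeq2, 806 without NT-941 and NT-984, and 449 without both mice. In p21+/Tert mice 986 passed, 1307 with the mouse as a block, 2109 with DESeq2, 403 without those livers, and 240 without NT-662. For Ctnnb1-mutated tumors 1896 passed, 839 with the tumors alone, 3111 with DESeq2, and 437 without T-HCC662.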
